A study of Mus musculus with 10 samples.

Results

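Rab, Arf and Arl genes encode the small GTPases that direct membrane traffic. In the islets of 2 obese mouse strains, NZO and B6-ob/ob, 79 such genes (53 Rab, 6 Arf and 20 Arl) were described among the 35214 genes of the gene table, together with their 468 events among the 167895 events of the splicing table. Members were chosen by gene symbol alone (Rab, Arf or Arl followed by a number and at most a single letter), and the Rab3 genes Rab3a to Rab3d and the Rab27 genes Rab27a and Rab27b were left out. The islets came from 5 NZO mice (strain NZO/HiBomDife), a polygenic model of obesity and diabetes, and from 5 B6-ob/ob mice (strain C57BL/6J.V-Lepob/ob), which lack functional leptin and are obese but resist diabetes. All 10 mice were male, ate a high-fat diet free of carbohydrates up to an age of 18 weeks, and carbohydrates were then added for 2 days, so that the groups share diet and sex and differ in the whole genetic background as well as in the Lep mutation. No lean and no unchallenged group was part of the comparison.

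Small GTPases of these families switch between a GTP-bound form on a membrane and a GDP-bound form. Guanine nucleotide exchange factors load GTP, GTPase-activating proteins end the active state, and the GTP-bound protein recruits coats, tethers and motors to its compartment. Each compartment carries its own members, from the endoplasmic reticulum and the Golgi to endosomes, lysosomes, secretory granules and the primary cilium. In β-cells this traffic sorts proinsulin into granules and returns granule membrane after exocytosis.

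Every value below was pooled over mice by the authors. The level of a gene is their mean normalized count over all 10 libraries, 1 value for both strains together. The inclusion of an exon, intron, start or end is given as PSI (proportion spliced in), 1 value per strain. No value per mouse was at hand, so no SD, interval or test can be given, and the depth behind a PSI is unknown. A PSI difference is NZO minus B6-ob/ob, and was counted when its size was over 0.1 and the gene's mean normalized count reached 100. The spread between mice is unknown, so a difference past this limit is a difference between pooled values only. The labels name the pancreas as the source and the study's methods name isolated islets. The β-cell hormone genes Ins2 and Ins1 stood at 6.68e+06 and 2.58e+06 normalized counts and Gcg, the glucagon gene of α-cells, at 240204, whereas the 7 acinar marker genes reached 88.4 to 212 each. Endothelial markers summed to 8898 and leukocyte markers to 368. How far these other cells contribute to a value below was not tested, and in such bulk RNA fewer cells of a type and less RNA per cell cannot be told apart.

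Most members were well expressed. Of the 79 genes, 62 (78.5%) reached a mean normalized count of 100, compared with 33.4% of all genes, and 36 reached 1000. The median member stood at 825 normalized counts. To compare genes, counts were divided by the length of the longest annotated transcript, and the 10 highest levels per kb belonged to the genes of the early secretory pathway and of endosomes. Arf1, which recruits the COPI coat to Golgi membranes, was the highest at 7923 normalized counts per kb. It was followed by Rab2a at 5726 and Rab1a at 4769, which act between the endoplasmic reticulum and the Golgi. Arf4 stood at 4693 and Arl1, which binds golgin tethers at the trans-Golgi, at 4201. Rab7, the Rab of late endosomes and lysosomes, reached 3472. The list was closed by Arf5 at 2708, Rab1b at 2547, Arf3 at 1640 and Rab5c, an early endosome fusion factor, at 1494. This order depends on the transcript length used. Per kb of the median transcript length, Arf3 was the highest at 14828, followed by Arl1 at 14048 and Arf1 at 8322. Rab7, Arf5 and Rab5c then ranked 12, 13 and 14, and Rab14, Rab8a and Rab18 ranked 5, 9 and 10.

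**Figure D1:**
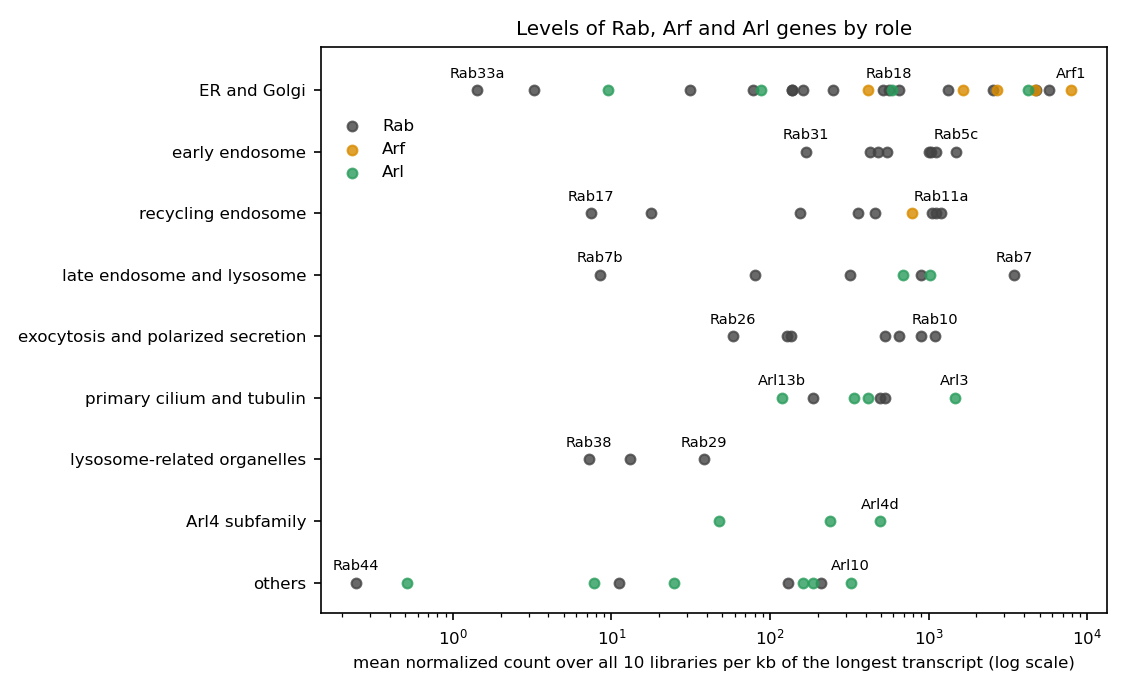
Mean normalized count over all 10 libraries per kb of the longest transcript (log axis) for each member, in rows by role and coloured by family; each point is 1 gene, with no error since the files give 1 mean. ER and Golgi genes span 1.42 (Rab33a) to 7923 (Arf1), whereas the 8 early endosome genes all lie between 168 and 1494; Arl13a, at 0, is not drawn.

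By role, the 24 ER and Golgi genes ranged from 1.42 per kb for Rab33a to the value of Arf1, with a median of 539. The 8 early endosome genes, led by Rab5c, were all at or above the count minimum, with a median of 777 per kb. Among the 9 recycling endosome genes the median was 456. Rab11a, the main Rab of recycling endosomes, reached 1195 per kb and Rab25, its close relative in epithelia, 1117, whereas Rab17, another epithelial Rab, was at 7.42. Of the exocytosis genes, Rab10 (1090 per kb) and Rab37 (892), which is found on secretory granules, were the highest and Rab26 (58.7) the lowest. Of the 8 cilium and tubulin genes, Arl3, which releases lipidated cargo in cilia, stood at 1465 per kb and Arl13a was listed at 0. The 3 members tied to melanosomes and other lysosome-related organelles were all under the count minimum, with 38.2 normalized counts per kb for Rab29, 7.25 for Rab38 and a level between them for Rab32.

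In all, 17 members were under the count minimum and 5 of them under 10 normalized counts. These 5 were Rab42 at 8.53, Rab33a at 1.64, Rab44 at 1.01, Arl14 at 0.621 and Arl13a at 0. Processed copies share sequence with several members, but those listed by name carried almost no signal. Rab7-ps1 had 0.371 normalized counts, and Rab11b-ps2, Rab5a-ps and Rab9b-ps1 were listed at 0.

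Between the strains, 43 of 426 member events (10.1%) had a PSI difference over the limit, compared with 7.99% of all events. Of these, 21 were higher and 22 lower in NZO islets. They fell in 18 of the 58 members with an event at the count minimum (31.0%), compared with 45.2% of all such genes. Members had fewer annotated events than other genes, with a median of 6.5 per gene against 12 over all genes. If every event type of the members had passed at its share over all genes, 45.5 events would have passed. The count over events is thus close to that background, and only its makeup and the named events are described further.

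The events past the limit were mostly alternative ends of transcripts. Tandem transcription starts, neighbouring start sites in the same stretch, made up 23 of the 43, or 26.4% of 87 member starts against 22.5% over all genes. Tandem polyadenylation sites made up 15, or 21.7% of 69 against 27.6%. Of the splicing events proper, 2 of 234 cassette exons (0.855%) passed, with 1.3% over all genes. Retained introns passed in 2 of 17 cases (11.8%, 10.1% over all genes), and alternative 5' splice sites in 1 of 3 (33.3%, 14.3% over all genes). None of 8 alternative 3' splice sites (13.4% over all genes), 7 alternative first exons (7.25%) or 1 alternative last exon (8.66%) passed. Starts and ends were thus 88.4% of the member calls and 36.6% of the member events, and 77.2% of all calls and 24.5% of all events.

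**Figure D2:**
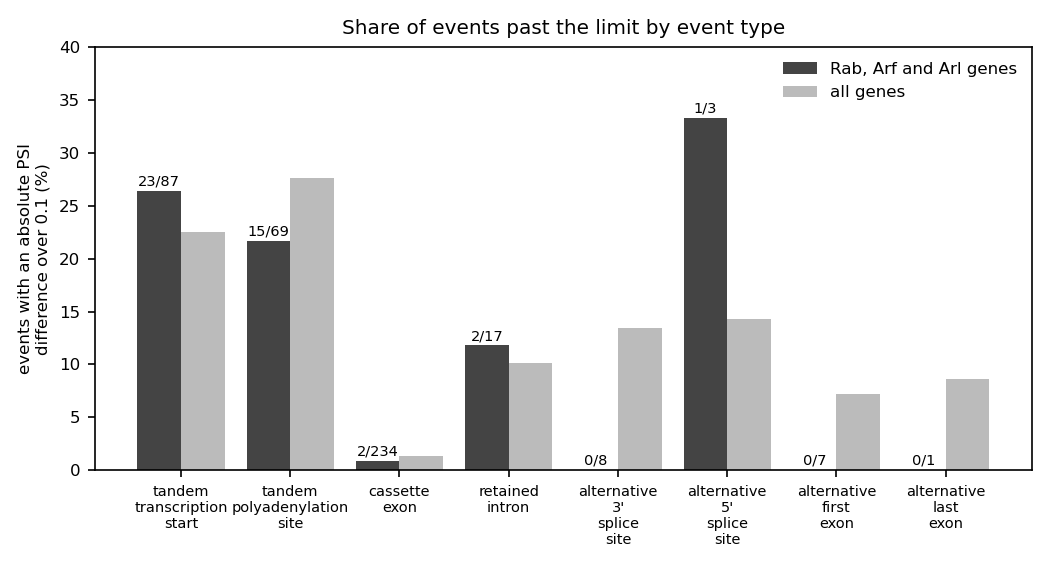
Percent of events with an absolute PSI difference over 0.1 for each event type, in member genes (dark bars, with the number past the limit and the number of events) and in all genes (light bars), for genes at the count minimum. Starts and ends lie above 20% in both sets and cassette exons under 2%; the tall bar for alternative 5' splice sites is 1 event of 3.

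By role, the late endosome and lysosome genes held calls in 3 of 6 genes (Rab7, Rab24 and Arl8a), and the ER and Golgi genes in 4 of 19 (Rab2b, Rab6a, Rab6b and Arl5b). Early endosome genes had 2 of 8 (Rab4b and Rab22a), recycling endosome genes 2 of 5 (Rab11b and Rab14) and cilium genes 2 of 7 (Rab23 and Rab28). Exocytosis genes had 1 of 6 (Rab12), the Arl4 subfamily 1 of 2 (Arl4c), and the remaining members 3 of 5 (Arl10, Arl15 and Rab40c). Each gene was listed under a single role, and Rab12, listed under exocytosis, also directs the transferrin receptor to lysosomes. With so few genes per role, these shares are counts only.

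The exons of the members were almost all constitutive in both strains. The 234 cassette exons, in 56 genes, had a median PSI of 0.995 in each strain, compared with 0.984 (NZO) and 0.989 (B6-ob/ob) over all genes. A mean PSI over 0.95 was found for 215 of them (91.9%, 81.8% over all genes), and 224 differed by less than 0.05 between the strains. These shares were not compared at equal gene level. Of the genes at the count minimum, 36 of 62 members and 5559 of 11777 over all genes reached 1000 normalized counts. Small differences leaned to lower inclusion in NZO islets, in 155 exons (66.2%), as they did over all genes (73.2%). All 234 coincide with an annotated exon, 227 overlap coding sequence, and 94 (40.2%, 39.4% over all genes) have a length divisible by 3.

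Among these exons the largest difference was found in Arl15, an Arl gene linked to insulin signalling. An exon of 151 nt at chr13:113901003-113901153 on the plus strand (GRCm38) had a PSI of 0.615 in NZO islets and of 0.106 in B6-ob/ob islets, a difference of 0.509. It is part of the model Arl15-203 alone, annotated as a target of nonsense-mediated decay, and both other models, Arl15-201 and Arl15-202, skip it. The exon is shown because it carries the stop codon of that model, printed in capitals at exon bases 121 to 123, with 120 coding bases before it and 28 bases after.
Arl15 exon: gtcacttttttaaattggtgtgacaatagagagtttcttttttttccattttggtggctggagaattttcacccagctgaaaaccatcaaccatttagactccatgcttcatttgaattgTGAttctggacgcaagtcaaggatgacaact
Its length is not divisible by 3. The 3 other cassette exons of Arl15 were included at a PSI of 0.930 to 0.976 in NZO and 0.953 to 0.988 in B6-ob/ob islets. The level of Arl15 was 162 normalized counts per kb over both strains.

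Rab6a and Rab6b, which drive traffic from the Golgi back to the endoplasmic reticulum, showed smaller differences at corresponding exons. Rab6a has a pair of alternative coding exons of 106 nt each, of which transcripts carry either; in human the resulting proteins are known as Rab6A and Rab6A'. The upstream exon of the pair, at chr7:100629666-100629771, had a PSI of 0.159 in NZO islets and 0.0997 in B6-ob/ob islets. The downstream exon, at chr7:100629838-100629943, had 0.841 and 0.902. The downstream form thus predominated in both strains, and the difference in either exon was under the limit.

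Rab6b, the paralog that is abundant in neurons, has an exon of 106 nt too, at chr9:103161064-103161169 on the plus strand. Its PSI was 0.885 for NZO and 0.993 for B6-ob/ob islets, a difference of -0.11 and just past the limit. The 2 exons before it, of 59 and 54 nt, stood just under the limit, with 0.894 in NZO against 0.990 and 0.991. These 3 exons sum to 219 nt, which is divisible by 3. No annotated model skips all 3, and whether they were skipped together was not measured. The remaining 3 cassette exons of Rab6b were also lower in NZO islets, at 0.926 to 0.933 against 0.993 to 0.994.

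The 3 exons of 106 nt are shown to compare the alternative forms. In the Rab6a pair, capitals mark the 30 bases at which the exons differ from each other (71.7% identity). In Rab6b, capitals mark the 23 bases that differ from the downstream Rab6a exon (78.3% identity); from the upstream exon it differs at 30.
Rab6a upstream: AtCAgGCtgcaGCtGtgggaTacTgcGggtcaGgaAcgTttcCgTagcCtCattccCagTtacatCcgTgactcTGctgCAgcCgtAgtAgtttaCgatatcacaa
Rab6a downstream: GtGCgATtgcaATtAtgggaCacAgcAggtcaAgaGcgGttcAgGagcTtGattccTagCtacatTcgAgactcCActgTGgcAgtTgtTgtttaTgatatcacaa
Rab6b: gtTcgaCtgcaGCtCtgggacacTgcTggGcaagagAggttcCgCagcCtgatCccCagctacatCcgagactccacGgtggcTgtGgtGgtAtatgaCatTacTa
The exon of Rab6b was thus closer in sequence to the form of Rab6a that predominated in these islets.

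A cassette exon of 13 nt in Arl6, the GTPase that recruits the BBSome to the cilium, was the shortest of the 4 cassette exons with a mean PSI from 0.1 to 0.9. It lies at chr16:59618666-59618678 on the minus strand, in the coding models Arl6-202 and Arl6-203, and its reference sequence is given for identification.
Arl6 exon: aaaaaacagtaca
Its PSI was 0.128 in NZO islets, compared with 0.131 in B6-ob/ob, so that this small exon was mostly skipped in both strains.

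**Figure D3:**
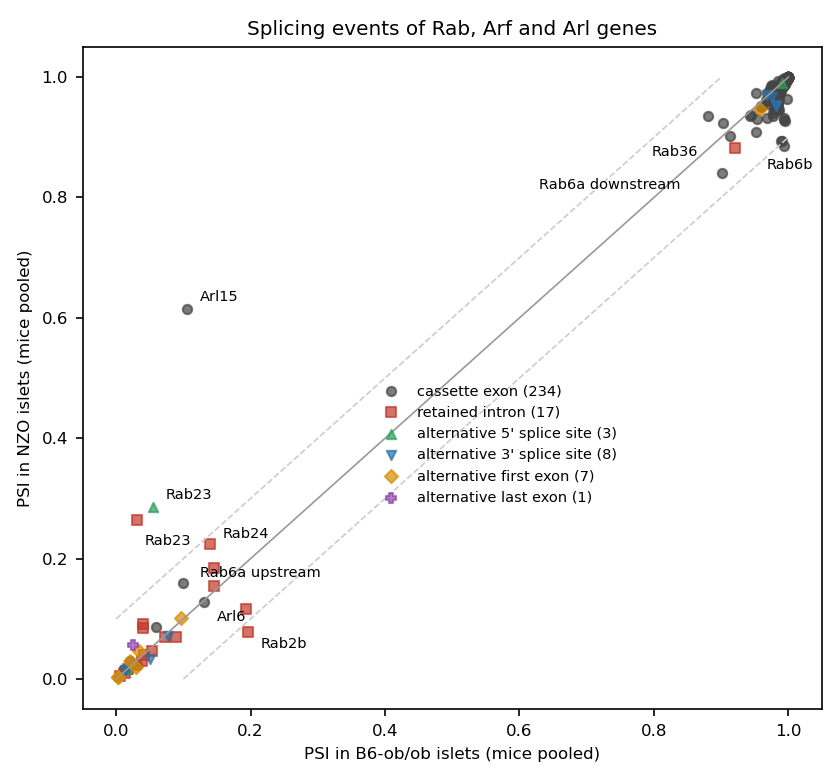
PSI in B6-ob/ob islets (horizontal) against PSI in NZO islets (vertical) for the 270 splicing, first exon and last exon events of members at the count minimum; each point is 1 event pooled over mice, the solid line marks equal PSI and the dashed lines a difference of 0.1. Most cassette exons crowd at the top right, and the Arl15 exon (0.615 in NZO, 0.106 in B6-ob/ob) and the 2 Rab23 events lie above the upper dashed line.

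Rab23, a negative regulator of Hedgehog signalling at the primary cilium, had a pair of linked events in a single intron. The 5' splice site after the exon that holds the start codon had an alternative position that adds 97 nt (chr1:33724006-33724102, plus strand), with a PSI of 0.285 in NZO islets and 0.0549 in B6-ob/ob islets. The rest of this intron, 831 nt at chr1:33724103-33724933, was retained at 0.264 and 0.0303. The added stretch contains the stop codon of Rab23-206, a model annotated as subject to nonsense-mediated decay, and Rab23-205, which spans both stretches, is annotated as a retained intron. Both values were higher in NZO islets by similar amounts, 0.230 and 0.233, and since a retained intron includes the added stretch they are not independent.

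An intron of Rab2b, a Golgi Rab, went in the other direction. This stretch of 183 nt at chr14:52268735-52268917 had a PSI of 0.0785 for NZO and 0.196 for B6-ob/ob islets, a difference of -0.12. It is retained in the model Rab2b-208 and spliced out in the 7 others that span it. Below the limit, introns of Rab24 (191 nt, 0.224 and 0.140) and Arl5b (3156 nt, 0.116 and 0.194) differed by less.

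Start sites passed the limit far more often than exons did. The PSI of the start sites in a stretch add up to about 1, so that a higher share of a site comes with a lower share of another, and both count as events. Of the 11 members with a start past the limit, the site with the larger share in NZO islets lay upstream in 5 and downstream in 6. In 7 the compared sites were at least 50 nt apart.

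Rab14, which moves between the Golgi and endosomes, had the largest difference of any member event. The start at chr2:35201120 (minus strand), used by the coding model Rab14-201, had a PSI of 0.750 in NZO islets, compared with 0.0076 in B6-ob/ob. The site 148 nt downstream, the start of the retained intron model Rab14-211, had 0.225 and 0.895. The RefSeq start of this gene was therefore used little in the pooled B6-ob/ob value and predominantly in that of NZO.

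Rab11b, a recycling endosome Rab, differed by 0.374 at the middle of its 3 starts. This start at chr17:33760484 (minus strand, Rab11b-205) had a PSI of 0.861 in NZO islets and 0.486 in B6-ob/ob islets. The start 178 nt downstream, that of the coding model Rab11b-203, had 0.139 and 0.515. The most upstream start was hardly used (0.0183 and 0.00956). In B6-ob/ob islets the other starts were used about equally, and in NZO islets the more upstream of them prevailed.

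The reference promoters of both genes, the 250 bases before the RefSeq start, are shown since the more upstream of the compared starts carried the larger share in NZO islets. That of Rab14 (GRCm38.p6, chr2:35201121-35201370, minus strand, start at 35201120) contains a GC box (GGGCGG, in capitals) and 23 CpG. That of Rab11b (chr17:33760487-33760736, minus strand, start at 33760486) contains a CCAAT box, read on the other strand as ATTGG (in capitals), and 9 CpG.
Rab14 promoter: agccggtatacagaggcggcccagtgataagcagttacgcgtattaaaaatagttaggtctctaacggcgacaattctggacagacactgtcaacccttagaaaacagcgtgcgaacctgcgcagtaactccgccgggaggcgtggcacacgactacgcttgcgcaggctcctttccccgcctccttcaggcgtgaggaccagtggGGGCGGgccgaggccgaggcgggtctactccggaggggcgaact
Rab11b promoter: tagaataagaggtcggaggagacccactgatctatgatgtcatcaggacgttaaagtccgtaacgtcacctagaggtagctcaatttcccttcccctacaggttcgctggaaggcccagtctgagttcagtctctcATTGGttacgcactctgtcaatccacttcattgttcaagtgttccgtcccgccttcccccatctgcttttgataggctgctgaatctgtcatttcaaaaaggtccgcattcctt
Both strands were searched for these boxes and for the TATA box (TATAAA), which neither promoter held. Among 80 promoters of 65 members, 72.5% held the GC box, 42.5% the CCAAT box and 6.25% the TATA box, compared with 32.7%, 33.8% and 12.4% of all 32851 RefSeq promoters of that length. The median number of CpG was 20 in member promoters and 6 in all. That background holds promoters of genes at any level, and promoters of expressed genes alone were not compared. A match of letters describes the sequence and is not a measured binding site. The reference is C57BL/6J, and the NZO sequence of these promoters, which may differ, was not examined.

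Rab28, a cilium Rab needed in photoreceptors, differed at a pair of starts near the 3' end of the gene. The start at chr5:41629117 (Rab28-204) had a PSI of 0.526 for NZO and 0.119 for B6-ob/ob islets. The other, 1615 nt downstream (Rab28-202), had 0.472 and 0.879. Both models are annotated as retained introns, and neither is a start of the coding models.

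In Arl4c, which recruits exchange factors of Arf6 to the plasma membrane, the start of Arl4c-201 and Arl4c-203 had a PSI of 0.984 in NZO islets, compared with 0.748 in B6-ob/ob. That of Arl4c-202, 345 nt upstream, was nearly unused in NZO islets, at 0.0149, and at 0.253 in B6-ob/ob. Rab2b favoured the middle of its 3 starts in both strains, more so in NZO islets (0.845 and 0.682), and its most upstream start, 206 nt away, had 0.138 and 0.287. Arl5b, a trans-Golgi Arl, used its upstream start at 0.258 and 0.0907 (107 nt), and Rab6a its downstream start at 0.593 and 0.478 (104 nt).

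The starts of the other 4 members lay close together. The sites of Arl10 were 32 nt apart (0.457 and 0.225 for the downstream site), and those of Rab12, which directs the transferrin receptor to lysosomes, 19 nt (0.795 and 0.619 for the upstream site). In Rab23 the site with the larger share in NZO islets (0.399 and 0.0498) lay 15 nt from its counterpart. In Rab24, an autophagy Rab, it lay 14 nt away (0.307 and 0.0587). Of the 38 starts and ends past the limit, 23 (60.5%) lay under 50 nt from the nearest annotated site of the same kind, the same share as over all genes (60.5%).

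**Figure D4:**
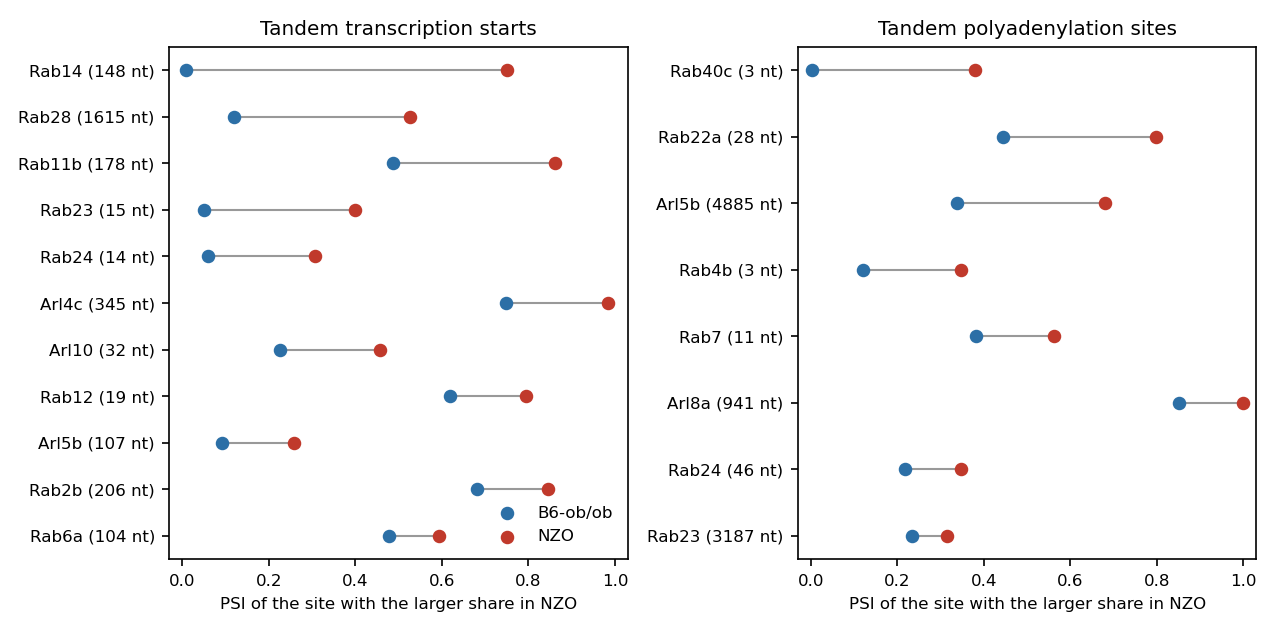
PSI in B6-ob/ob (blue) and NZO islets (red) of the tandem start (left) or polyadenylation site (right) whose share was larger in NZO, for each member with such an event past the limit, sorted by difference; values are pooled over mice, and the distance to the compared site with the larger drop is given beside the name. The Rab14 start spans 0.0076 to 0.750, the widest line, and several sites lie only 3 to 46 nt from the compared site.

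Among the ends, 8 members had a site past the limit, and the site with the larger share in NZO islets lay downstream in 6 and upstream in 2. These directions were not counted over all genes, so they are given as counts only. The compared sites were at least 50 nt apart in 3. In Arl5b, the most distal site had a PSI of 0.679 in NZO islets and 0.338 in B6-ob/ob islets, and a site 4885 nt upstream, which ends Arl5b-206, had 0.00213 and 0.188. Another site, 4 nt from the most distal, had 0.321 and 0.477. Short transcripts of Arl5b were thus nearly absent from the NZO value and the sites of the long form shifted within 4 nt.

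Arl8a, which couples lysosomes to kinesin, ended almost entirely at its distal site in NZO islets (PSI 0.999) and at 0.850 in B6-ob/ob islets. The site 941 nt upstream, of the retained intron model Arl8a-204, had 0.00147 and 0.150. In Rab23 a site of the retained intron model Rab23-203 had 0.158 in NZO islets and 0.296 in B6-ob/ob islets, and the site 3187 nt downstream was at 0.313 for NZO and 0.234 for B6-ob/ob islets.

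Sites of the other members with an end past the limit were close together. In Rab22a, an early endosome Rab, the distal site had 0.797 in NZO islets, compared with 0.444 in B6-ob/ob, 28 nt from the other. In Rab40c, which joins a ubiquitin ligase through its SOCS box, a site at 0.380 in NZO islets and 0.0025 in B6-ob/ob islets lay 3 nt from the main site (0.619 and 0.940). The sites of Rab4b, a Rab of fast recycling, were also 3 nt apart (0.348 and 0.119 for the upstream site). Those of Rab7 were 11 nt apart (0.561 and 0.382) and those of Rab24 46 nt (0.348 and 0.218). At such distances the pooled shares describe which annotated end was assigned, and the transcripts hardly differ in length.

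Ranked by the longest transcript, most of the most abundant members hardly differed in any event. Of the 10 highest per kb, Rab2a, Rab1a, Arf4, Arl1, Arf5, Rab1b and Arf3 had PSI differences of at most 0.0018, and Arf1 (0.0250) and Rab5c (0.0271) stayed far below the limit. Rab7 was the exception, through its ends 11 nt apart. The choice of length matters here. Per kb of the median transcript length, Rab14 ranked 5 (7158 normalized counts per kb), and it had the largest difference of any member event (0.743). All events of Rab2a, Arl1 and Rab1b were cassette exons, a type that passed in only 1.3% of cases over all genes. A share over all genes for the same mix of types was not determined, so no link to abundance was tested. No event past the limit was found in 40 of the 58 members, and 12 members had no event in the table. Just under the limit were the starts of Arl16 (0.131 in NZO islets and 0.0366 in B6-ob/ob islets at a start 119 nt upstream of another, which had 0.867 and 0.965).

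The regulators and effectors of these GTPases were examined as a list of 65 exchange factors, GTPase-activating proteins, escort proteins, prenylation subunits and effectors, of which 59 were at the count minimum. Of 1054 events, 55 (5.22%) passed the limit, in 20 of 55 genes (36.4%), compared with the backgrounds of 7.99% and 45.2% given above. Starts or ends made up 47 of the 55, as they made up most calls of the GTPases and 77.2% of the calls over all genes. The ends of Tbc1d10a, a Rab GTPase-activating protein, differed most, with 0.726 in NZO islets and 0.205 in B6-ob/ob islets for the distal of sites 3 nt apart. A start of Rabggta, the α subunit of the Rab prenylating enzyme, had 0.536 and 0.0901 (5 nt), and an end of the Rab11 effector Rab11fip3 0.763 and 0.386 (9 nt). Of 801 cassette exons, 3 (0.375%) passed, compared with 1.3% of cassette exons over all genes. All 3 were lower in NZO islets and are named here after their values were seen. The direction of cassette exons past the limit was not counted over all genes. They were an exon of 126 nt in Eea1, the Rab5 effector that tethers early endosomes (0.481 and 0.662), an exon of 81 nt in the Golgi tether Golga2 (0.184 and 0.340) and an exon of 208 nt in Mical1 (0.780 and 0.925).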

How the data were processed

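RNA of islets of 5 NZO and 5 B6-ob/ob mice was sequenced, and the labels assign each library to its strain. The gene table deposited by the authors gives a signal for each gene, the count normalized by DESeq2 size factors and averaged over all libraries, and the splicing table deposited by the authors gives for each event a PSI per strain, a fraction pooled over mice with Whippet. Salmon, DESeq2 and the build mm10 are named, with no version, in the processing notes of the submitters. The reference is C57BL/6J, the background of B6-ob/ob mice. Columns with the authors' own comparisons (fold changes, adjusted p-values, PSI differences, probabilities) and both sheets of significant results were not used.

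PSI differences were computed as NZO minus B6-ob/ob and counted past 0.1 in genes whose mean normalized count reached 100. With 1 pooled value per strain, no test was run. Levels were divided by the longest GENCODE M21 transcript, and all 79 members were matched. Exon sequences come from GENCODE M21 and promoters from RefSeq (GRCm38.p6, 65 members matched). Events were named by the largest difference per gene and type, and levels by the 10 highest per kb and those under a count of 10. Members and lists were chosen with earlier results of these data known. Counting was tested on simulated data. Alternatives were limits of 0.2 on PSI and of 10 and 1000 on counts, no count minimum, mean PSI from 0.1 to 0.9, the 4 splicing types (cassette exons, introns, alternative splice sites), stretches of at least 10 nt, and the median transcript length. Python 3.11.15, numpy 2.4.6, pandas 2.3.3 and matplotlib 3.10.9 were used.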

Additional observations from a re-analysis of the deposited data

How the results depend on the processing

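Of the 43 member events past the limit, 23, in 12 genes, remained past a PSI difference of 0.2 (23 of 426, compared with 3.19% of all events). At a mean count of at least 1000, 22 of 249 member events passed, compared with 6.16% of all events. Among the 4 splicing types alone, 5 of 262 events, in 4 genes, passed (2.25% of all such events). Tandem sites were also counted only when at least 50 nt apart, an alternative chosen after seeing the data. Then 20 of 353 events, in 11 genes, passed (4.93% of all such events). The 18 genes with an event became 10 at a mean count of at least 1000. Genes at the count minimum went from 62 to 36 at a minimum of 1000. The median level per kb of the 10 highest members was 3840 with the longest and 6600 with the median transcript length, and 7 of the 10 were also among the highest 10 by the latter. Under the other alternatives the counts stayed within 1.5 times, with 38 to 52 events in 16 to 21 genes. At a mean count of at least 10, 52 of 468 passed (8.38% of all events), as did 52 of 468 with no minimum (8.73%). With mean PSI from 0.1 to 0.9, 39 of 89 passed (40.5% of all events), and 38 of 404 stretches of at least 10 nt (7.11%). No paired analysis was possible because the strains share no replicate numbers and the tables hold pooled values, for which also no replicate could be left out. Without depth or spread per mouse, a difference near the limit cannot be told from sampling.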

Other observations

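Under the count minimum, 9 of 42 member events were past the PSI limit, in 3 genes named after their values were seen. The share over all events of genes under the minimum was not determined, so this count has no background to be compared with. Rab7b, a late endosome Rab at 38.0 normalized counts, had an exon of 126 nt (chr1:131705596-131705721) with a PSI of 0.884 in NZO islets and 0.612 in B6-ob/ob islets. Rab26, a Rab of secretory granules at 97.2 normalized counts, had a start with 0.770 and 0.505, an end, the middle of 3, with 0.933 and 0.761, and an intron of 270 nt with 0.163 and 0.283. Rab30, a Golgi Rab at 30.8 normalized counts, had ends 7888 nt apart, with 0.665 and 0.537 for the upstream site. At such levels few reads stand behind each PSI.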
